A study of Mus musculus with 9 samples.

Results

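The trigeminal ganglion (TG), which holds the cell bodies of the sensory neurons of the face and jaw, was compared 6 days after complete Freund's adjuvant (CFA, heat-killed mycobacteria in oil that sets off a lasting inflammation) with the TG after saline. The comparison used 6 of the 9 libraries of the series. These were the 3 libraries labelled CFA6D, numbered 4 to 6, and the 3 saline libraries, numbered 1 to 3. All mice were male wild-type C57BL/6 animals that received 1 unilateral injection of 10 µl into the temporomandibular joint (TMJ) under isoflurane, with CFA at 5 mg/ml or with saline, so the anaesthesia and the joint injection were common to both groups. Each library was RNA from the TG of the injected side pooled from 3 mice. The saline libraries carry a day 3 label, so CFA and the later day cannot be told apart in this comparison. The 3 remaining libraries, CFA on day 3 (CFA3D), were used for the spread between replicates and to set day 6 beside day 3.

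CFA in the joint is a common model of temporomandibular pain, in which the injected joint swells and the face becomes sensitive to touch. Inflammation also engages the stress axis: glucocorticoids released by the adrenal gland enter cells, bind the glucocorticoid receptor that heat shock proteins hold ready in the cytoplasm, and the receptor then moves to the nucleus and switches on a well known set of genes. Firing neurons switch on another set within minutes, the immediate early genes, many of which encode transcription factors. Genes of both sets are described first, then neuronal, glial and immune genes, and last the noncoding transcripts.

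Before any result, the libraries themselves were compared. Depth was estimated from the smallest steps between levels as 30000000 to 42200000 read pairs per library. Levels are in FPKM (a count of sequenced fragments divided by transcript length in kilobases and by library size), and a single read pair over 1 kb corresponded to 0.0237 to 0.0333 FPKM. The RNA carried the genes that define the tissue: the peripheral neuronal filament gene Prph was at 249 to 359 FPKM, the nociceptor sodium channel gene Scn10a at 53.3 to 86.4 FPKM, and the satellite glial gene Fabp7 at 49.98 to 79.1 FPKM over the 6 libraries. CFA6D replicate 6 stood apart. Among 13185 genes averaging 1 FPKM or more, 378 were more than 1 log2 unit above both other CFA6D libraries in it, against at most 123 such genes in any saline or CFA3D library, and the first principal component (27.8% of the variance) placed it at 48.5 with all 8 other libraries between -16.2 and 3.6. CFA6D replicate 4 held 229 genes more than 1 log2 unit below both other CFA6D libraries. Results are therefore given with and without replicate 6, and those that rest on replicate 4 are named.

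Tissue next to the ganglion differed between single libraries. The summed level of 24 neutrophil and marrow granule genes was 160, 115 and 71.3 FPKM in saline replicates 1 to 3, 171 and 165 FPKM in CFA6D replicates 4 and 5, and 3216 FPKM in CFA6D replicate 6. S100a8, a calcium-binding protein of neutrophils, was at 33.9, 23.2 and 16.4 FPKM in saline and at 44.99, 39.98 and 901 FPKM in CFA6D, and differed by 2.32 with all libraries (limma adjusted p = 0.451) and by 0.85 without replicate 6 (limma adjusted p = 0.581). Ngp, of the neutrophil granules, was at 16.6, 9.78 and 4.94 FPKM in saline and at 14.7, 14.6 and 334 FPKM in CFA6D. Cell division genes followed the same library, with Mki67, a marker of dividing cells, at 0.385 to 0.727 FPKM in saline, 0.643 and 0.439 FPKM in replicates 4 and 5 and 6.50 FPKM in replicate 6. The 17 pituitary genes summed to 110, 17.9 and 10740 FPKM in saline and to 1133, 422 and 52.8 FPKM in CFA6D. The 20 skeletal muscle genes summed to 79.8, 303 and 23.8 FPKM in saline and to 15.7, 16.8 and 148 FPKM in CFA6D, and the 14 adipocyte genes to 79.2, 249 and 80.4 FPKM in saline and 86.0 to 96.1 FPKM in CFA6D. The pituitary genes Lhb and Gnrhr and the neutrophil gene Stfa2l1 were at 0 in some libraries. At the unadjusted threshold defined below, 6 of the 24 neutrophil and marrow genes rose and 0 fell (3 and 1 without replicate 6), 0 of 20 muscle genes rose and 1 fell (0 and 14 without replicate 6), and of 15 pituitary, 11 adipocyte, 16 bone and 26 cell division genes 0 rose and 0 fell. Over all genes, 8.21% rose and 2.85% fell, and 5.87% and 3.32% without replicate 6. The part of these tissues in the differences below was not tested beyond leaving out libraries.

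**Figure D1:**
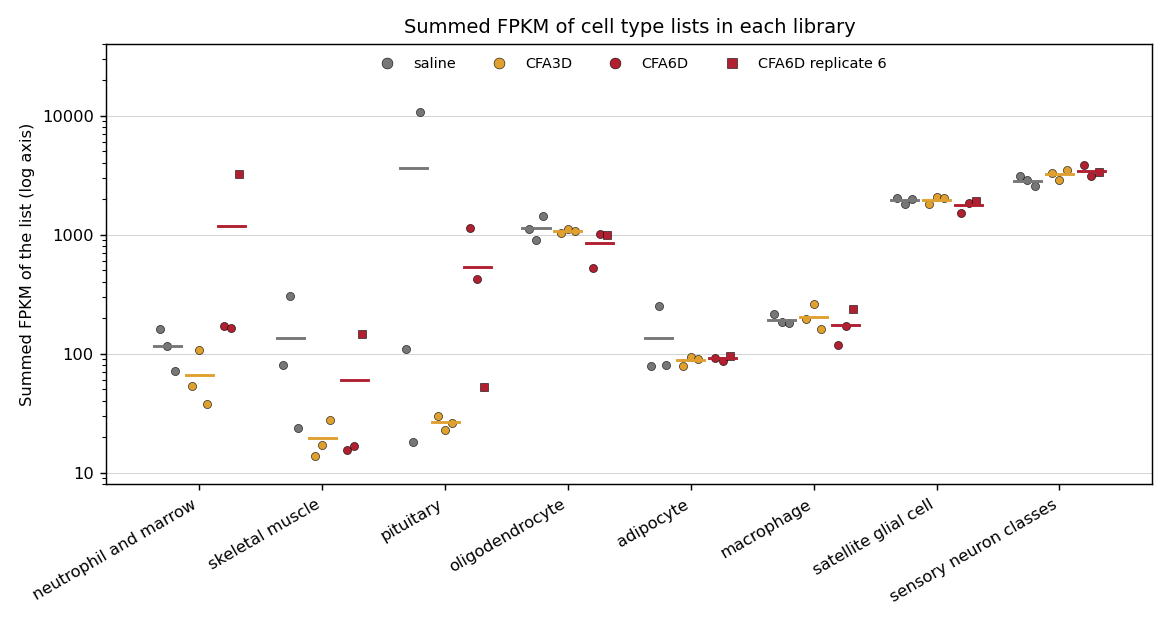
Summed FPKM (log axis) of marker gene lists of 8 cell types in each saline, CFA3D and CFA6D library; each point is 1 library, the square is CFA6D replicate 6 and the lines are group means. The neutrophil and marrow sum is 3216 FPKM in CFA6D replicate 6 and at most 171 FPKM elsewhere, and the pituitary sum is highest in saline replicate 3, at 10740 FPKM.

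CFA6D was compared with saline in a limma fit of all 9 libraries, over which 16110 mRNA genes had a mean level of at least 0.1 FPKM. Values were log2(FPKM + 0.1), a scale that understates the change of low genes. At an unadjusted p under 0.05, 1782 genes differed (11.1% of those tested), 1323 of them higher on day 6 (8.21%) and 459 lower (2.85%). At a difference of at least 1 log2 unit as well, 96 genes remained (0.596%), 65 upregulated (0.403%) and 31 downregulated (0.192%). No gene had a Benjamini-Hochberg adjusted p under 0.05 in limma, and 34 had one under 0.1 (0.211%), 32 of them higher. In the text, "rose", "fell", "higher" and "lower" refer to the unadjusted threshold unless an adjusted p is given. An exact permutation test of 3 libraries against 3 cannot go below 0.1, so no single gene could pass it. The direction of the whole set depended on scaling: 1323 of 1782 were higher as deposited, 992 of 1978 after quantile normalization and 1125 of 1958 after median ratio scaling.

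Without CFA6D replicate 6, 159 of 16026 genes passed the same double threshold (0.992%), 52 up (0.324%) and 107 down (0.668%). The lists overlapped in part. Of the genes upregulated with all libraries, 32 of 65 (49.2%) were also among the 52 (61.5% of these), and of those downregulated, 27 of 31 (87.1%) were among the 107 (25.2% of these). In 24 of the 65 upregulated genes, replicate 6 lay more than 1 log2 unit above both other CFA6D libraries. The median difference over all genes tested was 0.03 on the log2 scale with replicate 6 and 0.00 without it. The downregulated genes were mostly low, with a median over the 31 genes of 0.749 FPKM in saline and 0.177 FPKM in CFA6D.

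**Figure D2:**
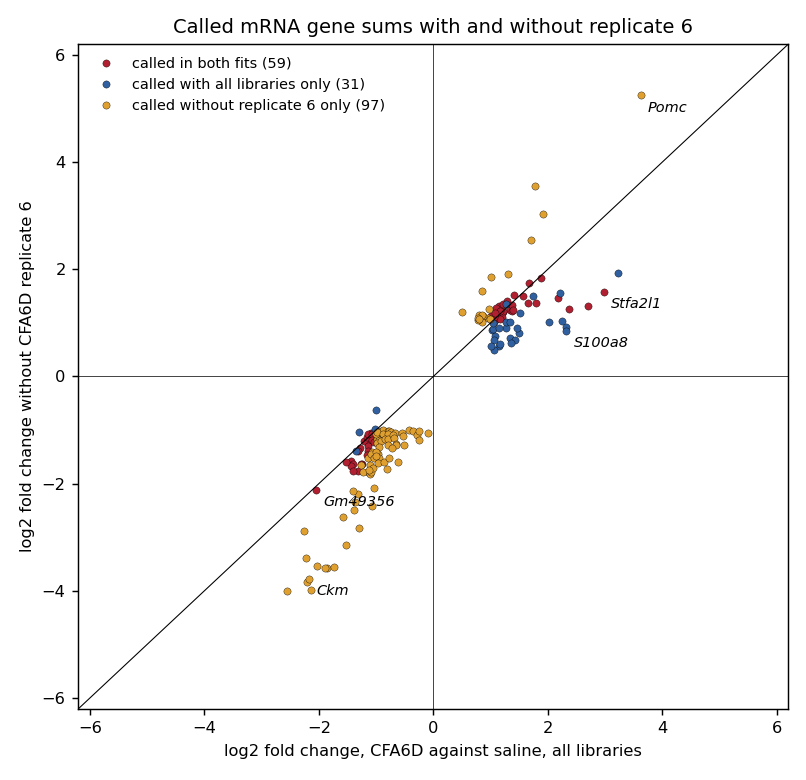
Log2 difference, CFA6D minus saline, of each gene past the double threshold in either fit, with all libraries (x axis) and without CFA6D replicate 6 (y axis). Each point is 1 gene that was tested in both fits. The 59 genes past it in both differ between fits by a median of 0.10 and by up to 1.39 (Stfa2l1), and 31 genes past it only with all libraries and 97 only without replicate 6 are drawn, leaving out 6 and 3 that were tested in 1 fit alone.

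Glucocorticoid-responsive genes were the group with the largest share of members higher on day 6 among the lists examined. Of 31 tested, 17 rose and 0 fell (against 8.21% and 2.85% of all genes), 8 of them by at least 1 log2 unit (0.403% of all genes), and the median difference was 0.68 on the log2 scale against 0.03 over all genes. Without replicate 6, 19 rose and 0 fell (5.87% and 3.32% of all genes), with a median of 0.65. The same 31 genes held 13 that were higher and 0 that were lower on day 6 than on day 3 after CFA (3.07% and 4.34% of all genes). The summed level of the list, 1433, 1273 and 1412 FPKM in saline and 1433, 1934 and 1404 FPKM in CFA6D, overlapped between groups.

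Ddit4, which encodes an inhibitor of the growth kinase mTORC1 that is induced by glucocorticoids and other stresses (GRCm38 chr10:59949669-59951834), was at 26.3, 24.3 and 16.9 FPKM in saline replicates 1 to 3 and at 69.4, 79.1 and 63.0 FPKM in CFA6D replicates 4 to 6. All CFA6D libraries were above all saline libraries, by 1.66 on the log2 scale (SE 0.22, limma adjusted p = 0.0732), and without replicate 6 the difference was 1.74. The CFA3D libraries were at 26.4, 27.2 and 16.4 FPKM, below all CFA6D libraries. Arid5b, a DNA-binding regulator (chr10:68092520-68278740), was at 7.30, 7.93 and 10.6 FPKM in saline and at 20.04, 18.6 and 17.8 FPKM in CFA6D. It was higher by 1.13 (SE 0.14, limma adjusted p = 0.0732), again with no overlap, and the 3 CFA3D libraries were at 7.22 to 8.90 FPKM. Sgk1, a kinase that acts on ion channels and transporters (chr10:21882184-21999903), was at 33.0, 27.0 and 17.2 FPKM in saline and at 49.6, 67.2 and 58.9 FPKM in CFA6D. The difference was 1.22 on the log2 scale (SE 0.28, limma adjusted p = 0.156) and 1.21 without replicate 6.

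Nfkbia encodes the inhibitor that retains NF-kappa B in the cytoplasm. It was at 15.9, 14.6 and 12.1 FPKM in saline and at 27.7, 34.5 and 32.2 FPKM in CFA6D, higher by 1.15 (SE 0.20, limma adjusted p = 0.104). The arrestin-related gene Arrdc2 was at 10.5, 6.57 and 6.35 FPKM in saline and at 17.4, 27.4 and 17.7 FPKM in CFA6D, higher by 1.41 (SE 0.26, limma adjusted p = 0.104). Sik1, a kinase of the cAMP response that belongs both to this list and to the immediate early genes, was at 2.44, 2.84 and 3.21 FPKM in saline and at 5.71, 7.97 and 8.54 FPKM in CFA6D, higher by 1.34 (SE 0.20, limma adjusted p = 0.0835). In none of these genes did the groups overlap, and each remained at an unadjusted p under 0.05 without replicate 6. Groups did not overlap upward in 17 of the 31 genes, against 10.7% of all genes tested.

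The receptor gene was not among the genes that rose. Of 15 genes of the glucocorticoid receptor and its cochaperones, 1 rose and 1 fell (8.21% and 2.85% of all genes). Their median difference was -0.01 on the log2 scale. The member that rose was Ncoa1, a coactivator of nuclear receptors, at 15.0 to 16.1 FPKM in saline and 17.9 to 19.7 FPKM in CFA6D (difference 0.27, SE 0.07). Nr3c1, the receptor gene, was at 14.9, 11.98 and 12.99 FPKM in saline and at 9.73, 10.2 and 12.4 FPKM in CFA6D, so that CFA6D replicate 6 overlapped saline. Its difference was -0.30 (SE 0.12, limma adjusted p = 0.410), and it no longer passed the unadjusted threshold when saline replicate 1 (difference -0.22), saline replicate 3 (-0.31), CFA6D replicate 4 (-0.23) or CFA6D replicate 5 (-0.27) was left out. Its direction turned to 1.27 (1.16 without replicate 6) when its most abundant transcript replaced the gene sum, and neither value passed.

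Of 34 immediate early genes tested, 16 rose and 0 fell (8.21% and 2.85% of all genes), 7 of them by at least 1 log2 unit (0.403%), with a median difference of 0.53. Without replicate 6, 15 rose and 1 fell (5.87% and 3.32% of all genes). Against day 3, 12 were higher and 1 was lower (3.07% and 4.34% of all genes). The list shares 2 genes with the glucocorticoid-responsive list. Leaving out any 1 of the saline or CFA6D libraries left 14 to 17 that rose.

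Fosl2, a partner of Jun in the AP-1 transcription factor (chr5:32135801-32157842), was at 3.91, 3.38 and 4.32 FPKM in saline and at 6.71, 9.64 and 8.58 FPKM in CFA6D, a difference of 1.07 (SE 0.21, limma adjusted p = 0.125). Egr3, a zinc finger factor, was at 1.10, 1.46 and 0.789 FPKM in saline and at 2.29, 2.64 and 2.94 FPKM in CFA6D, and differed by 1.19 (SE 0.27, limma adjusted p = 0.153). Neither gene overlapped between groups, although Egr3 did not pass (difference 0.64) when its most abundant transcript replaced the gene sum. Nr4a1, an orphan nuclear receptor induced by depolarization, was at 12.2, 11.4 and 6.77 FPKM in saline and at 19.4, 22.3 and 17.5 FPKM in CFA6D (0.99, SE 0.23). Zfp36, which encodes a protein that speeds the decay of cytokine mRNAs, was at 3.80, 3.79 and 4.14 FPKM in saline and at 6.60, 9.32 and 7.96 FPKM in CFA6D (0.99, SE 0.18). Jun was the steadiest of them, at 18.6 to 19.2 FPKM in saline and 24.8 to 27.3 FPKM in CFA6D, with a difference of 0.47 (SE 0.07, limma adjusted p = 0.0864). Unlike Fosl2 and Egr3, Jun was already at 21.7 to 24.8 FPKM in CFA3D, and its step from day 3 to day 6 was 0.17 (limma adjusted p = 0.670).

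**Figure D3:**
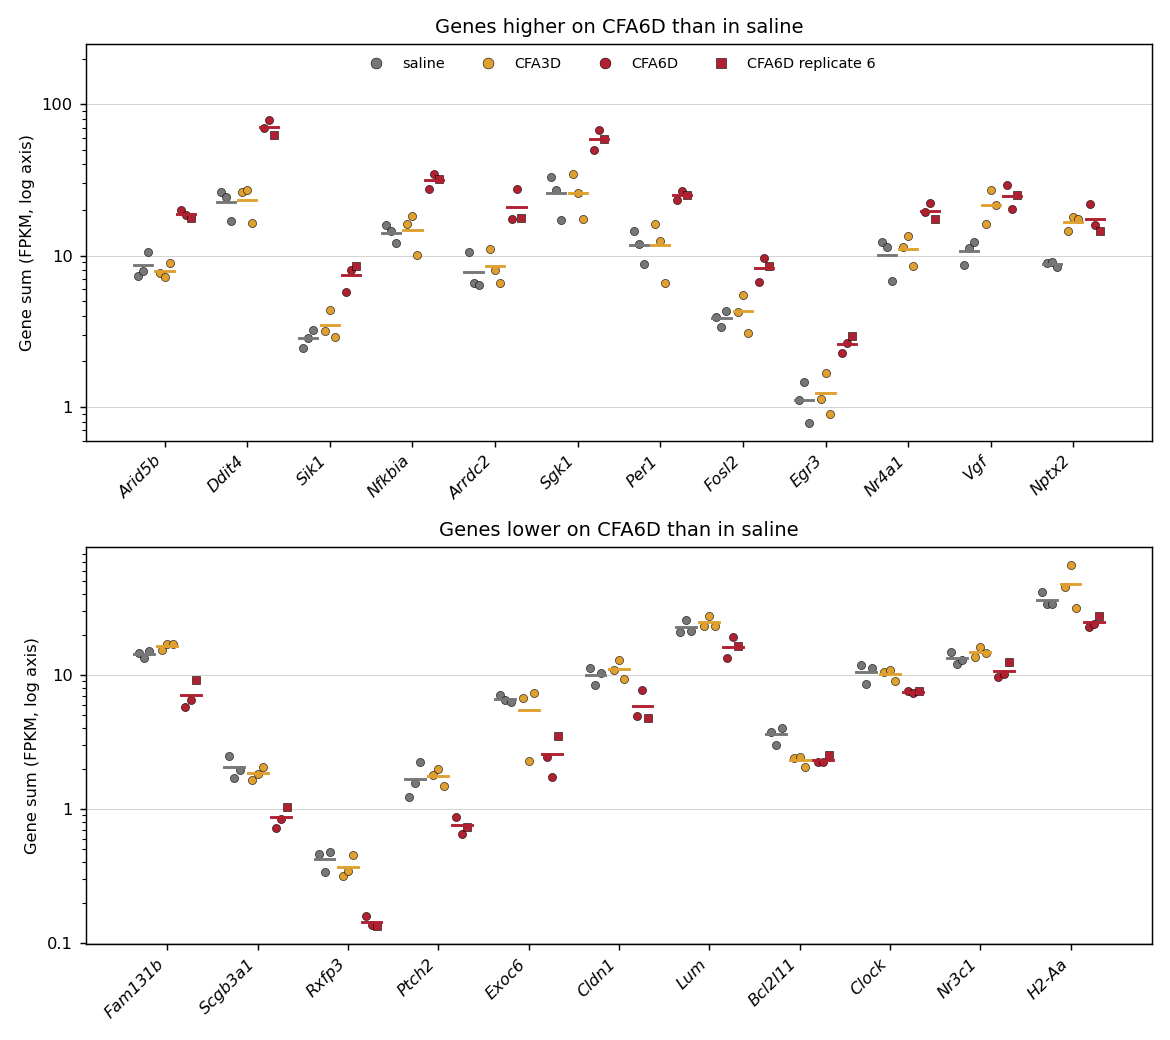
Gene sums (FPKM, log axis) of 12 genes that were higher (top) and 11 that were lower (bottom) in CFA6D than in saline; each point is 1 library, squares are CFA6D replicate 6 and lines are group means. Ddit4, for example, lies at 16.9 to 26.3 FPKM in saline, at 16.4 to 27.2 FPKM in CFA3D and at 63.0 to 79.1 FPKM in CFA6D.

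Promoters of the genes upregulated both with and without replicate 6 were read from RefSeq (GRCm38.p6), 250 bases before to 50 bases after each start. Windows were found for 24 of the 32 genes (30 windows). They were searched on both strands for ACANNNTGT (the core of the glucocorticoid receptor's binding site), TGACGTCA (the cAMP response element), CACGTG (an E-box), TTATGNAA (a D-box) and GAANNTTC (a heat shock element), of which GAANNTTC can overlap ACANNNTGT. ACANNNTGT was present in 3 of the 30 windows (10%, in 2 genes) and in 6.85% of all 32851 windows, TGACGTCA in 1 (3.33%, against 1.79%), CACGTG in 6 (20%, against 7.15%), TTATGNAA in 3 (10%, against 3.38%) and GAANNTTC in 4 (13.3%, against 7.86%). In the 40 windows of 29 glucocorticoid-responsive genes, ACANNNTGT was present in 6 (15%) and CACGTG in 7 (17.5%). These shares describe the letters in the windows only. Of the windows with a motif, those of the 4 genes with the smallest p without replicate 6 are printed to show where the letters lie, with the motifs in capitals. In Sgk1, which has 6 windows, the letters of ACANNNTGT and GAANNTTC overlap, and an E-box lies further from the start. The motif of Fosl2 lies at -244, that of Arl4d at -26 and that of AA467197 at -82.
Sgk1, chr10:21993640-21993939, plus strand: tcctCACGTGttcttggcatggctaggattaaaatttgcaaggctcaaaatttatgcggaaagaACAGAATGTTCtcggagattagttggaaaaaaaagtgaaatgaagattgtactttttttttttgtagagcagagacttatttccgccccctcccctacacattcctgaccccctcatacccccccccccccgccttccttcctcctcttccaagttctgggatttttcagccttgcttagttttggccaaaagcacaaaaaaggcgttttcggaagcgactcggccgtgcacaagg
Fosl2, chr5:32136222-32136521, plus strand: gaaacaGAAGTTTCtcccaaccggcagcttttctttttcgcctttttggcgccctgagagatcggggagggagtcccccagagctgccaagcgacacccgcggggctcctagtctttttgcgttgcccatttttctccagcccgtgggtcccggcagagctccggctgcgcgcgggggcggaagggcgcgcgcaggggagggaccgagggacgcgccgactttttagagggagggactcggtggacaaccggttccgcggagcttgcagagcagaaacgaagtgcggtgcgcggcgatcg
Arl4d, chr11:101665291-101665590, plus strand: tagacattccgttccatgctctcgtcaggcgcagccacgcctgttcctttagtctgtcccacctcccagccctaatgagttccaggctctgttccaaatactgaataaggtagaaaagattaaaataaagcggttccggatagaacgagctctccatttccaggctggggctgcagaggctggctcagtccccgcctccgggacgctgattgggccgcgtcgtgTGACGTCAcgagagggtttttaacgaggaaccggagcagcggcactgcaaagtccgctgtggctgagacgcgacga
AA467197, chr2:122637637-122637936, plus strand: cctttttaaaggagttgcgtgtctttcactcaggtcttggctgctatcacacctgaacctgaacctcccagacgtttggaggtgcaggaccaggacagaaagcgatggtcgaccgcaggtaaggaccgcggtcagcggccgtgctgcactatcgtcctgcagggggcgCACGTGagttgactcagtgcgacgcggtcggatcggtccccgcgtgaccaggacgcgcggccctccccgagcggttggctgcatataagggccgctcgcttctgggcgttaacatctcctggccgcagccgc

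Arl4d, a small GTPase of the ARF family, was at 5.03, 6.14 and 6.26 FPKM in saline and at 8.69, 16.4 and 12.1 FPKM in CFA6D, higher by 1.04 (SE 0.23, limma adjusted p = 0.153). AA467197 was low, at 0.0481 to 0.107 FPKM in saline and at 0.401, 0.323 and 1.95 FPKM in CFA6D, and replicate 6 set much of its difference of 2.18, which was 1.46 without it.

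Circadian, heat shock and signalling genes were counted against the same 8.21% of all genes that rose and 2.85% that fell. Of 22 clock genes, 3 rose (13.6%) and 2 fell (9.09%), with a median of 0.03. Among them Csnk1d, a kinase that sets the pace of the clock, was at 33.5 to 38.0 FPKM in saline and 45.4 to 48.5 FPKM in CFA6D (0.41, SE 0.07, limma adjusted p = 0.103), the repressor gene Cry2 at 21.01 to 25.8 FPKM and 27.0 to 30.8 FPKM (0.37, SE 0.10), and Per1, which glucocorticoids also induce, at 14.6, 11.9 and 8.76 FPKM and 23.1, 26.5 and 25.2 FPKM (1.11, SE 0.29). Clock, the activator of the loop, was lower, at 8.63 to 11.8 FPKM in saline and 7.30 to 7.63 FPKM in CFA6D (-0.48, SE 0.13). Its most abundant transcript taken alone gave -0.38 and did not pass. Of 23 heat shock and chaperone genes, 3 rose (13.04%) and 2 fell (8.70%). Bag3, a cochaperone of Hsp70 in protein quality control, was at 27.4, 28.5 and 30.5 FPKM in saline and at 48.9, 39.1 and 44.7 FPKM in CFA6D, with no overlap (0.61, SE 0.10, limma adjusted p = 0.0864). Of 28 genes of NF-kappa B and MAPK signalling 3 rose (10.7%) and 0 fell, of 23 insulin and FoxO genes 4 rose (17.4%) and 0 fell, and of 25 cholesterol genes 4 rose (16%) and 0 fell. Of 25 apoptosis genes 0 rose and 1 fell (4%). That gene was Bcl2l11, which encodes the cell death protein Bim, at 3.75, 3.02 and 4.05 FPKM in saline and 2.26, 2.23 and 2.52 FPKM in CFA6D (-0.60, SE 0.15), and it was as low in CFA3D, at 2.06 to 2.45 FPKM.

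**Figure D4:**
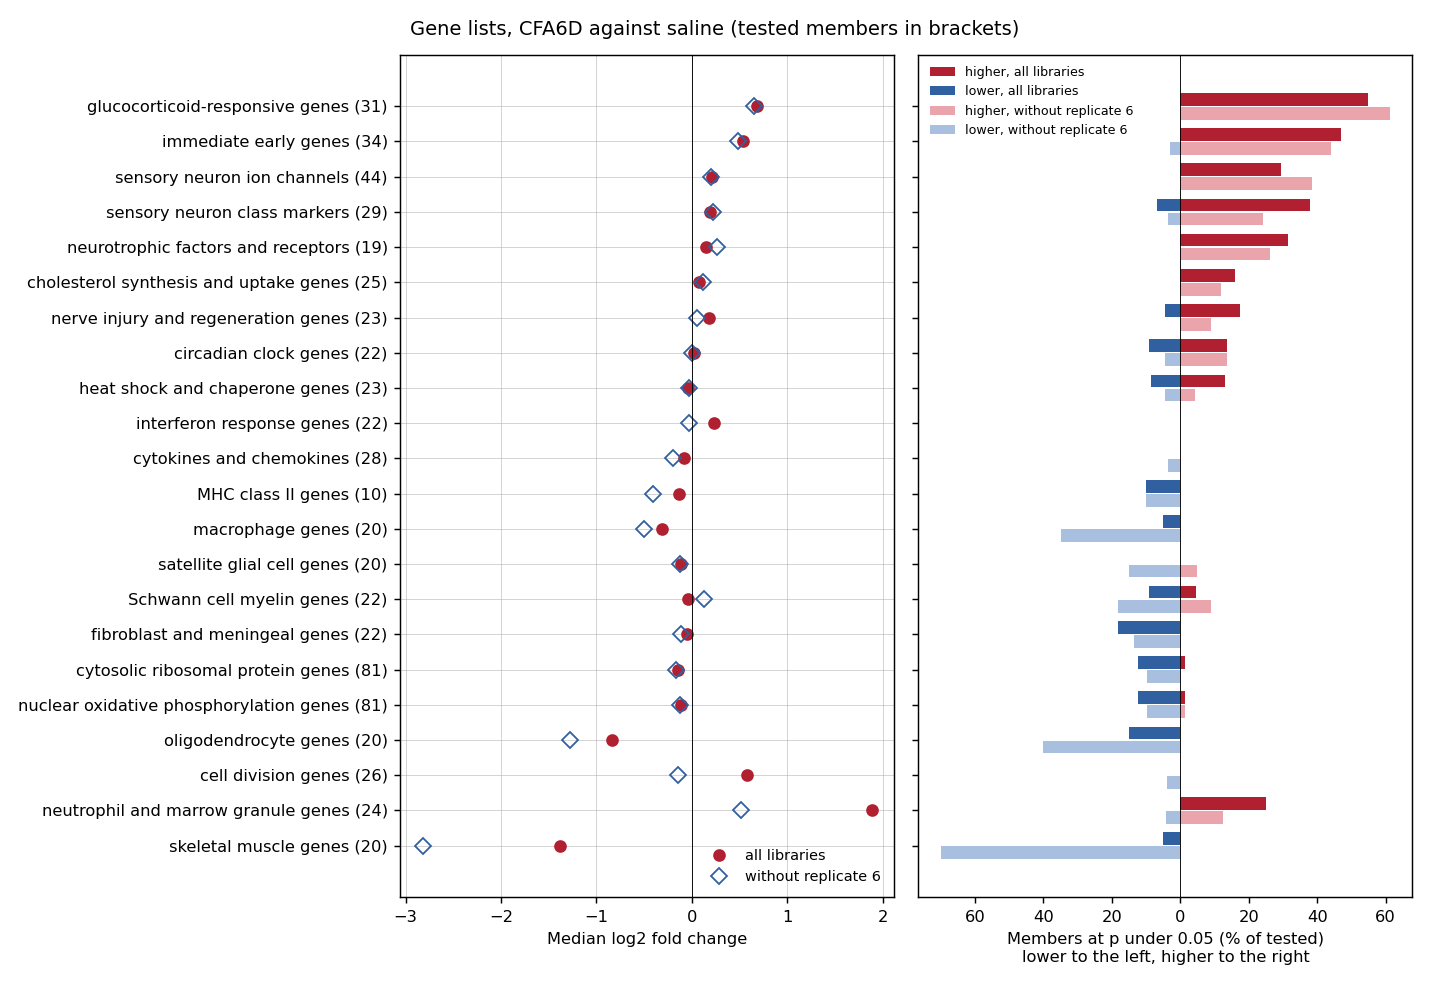
Median log2 difference, CFA6D minus saline, of the tested members of each gene list drawn (left) and the percentage of them lower or higher at an unadjusted limma p under 0.05 (right), with all libraries and without CFA6D replicate 6. Glucocorticoid-responsive genes (17 of 31 higher) and immediate early genes (16 of 34 higher) have the longest bars on the upward side, and the median of the neutrophil and marrow list moves from 1.89 to 0.52 without replicate 6.

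Of 44 ion channel genes of sensory neurons, 13 rose and 0 fell (8.21% and 2.85% of all genes), and 0 of them reached 1 log2 unit. Their median difference was 0.21. Without replicate 6, 17 rose and 0 fell (5.87% and 3.32% of all genes). The count depended on the setting: 9 rose after quantile normalization (6.16% of all genes), 10 after median ratio scaling (6.98%), 6 with the most abundant transcript (7.86%) and 8 without CFA6D replicate 4 (7.1%). Piezo2, the mechanically gated channel of touch and proprioceptive neurons, was at 47.5, 48.3 and 36.1 FPKM in saline and at 59.6, 58.1 and 55.8 FPKM in CFA6D (0.41, SE 0.12). Kcnk18, the potassium leak channel TRESK that dampens excitability, was at 3.23 to 3.96 FPKM in saline and 5.00 to 5.27 FPKM in CFA6D (0.52, SE 0.14). The acid-sensing channel gene Asic2 was at 10.4 to 11.01 FPKM and 13.1 to 14.7 FPKM (0.36, SE 0.08). Their limma adjusted p ranged from 0.149 to 0.240. Trpv1, the capsaicin receptor, was at 12.1, 10.8 and 9.68 FPKM in saline and at 15.4, 13.3 and 9.72 FPKM in CFA6D. It did not pass with all libraries (0.21, limma adjusted p = 0.668) and differed by 0.40 without replicate 6 (limma adjusted p = 0.384). Of the 44, 2 were higher on day 6 than on day 3 (3.07% of all genes).

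Of 29 markers of sensory neuron classes, 11 rose and 2 fell (8.21% and 2.85% of all genes) with a median of 0.19, and 7 rose and 1 fell without replicate 6 (5.87% and 3.32%). Rbfox3, the nuclear protein NeuN of mature neurons, was at 29.6, 30.7 and 38.9 FPKM in saline and at 59.3, 45.7 and 53.2 FPKM in CFA6D (0.67, SE 0.13, limma adjusted p = 0.106). Pou4f1, the homeobox factor Brn3a of sensory neurons, was at 14.1 to 15.0 FPKM and 19.2 to 23.1 FPKM (0.56, SE 0.10, limma adjusted p = 0.104). Mrgprd, a receptor of nonpeptidergic nociceptors, was at 9.38 to 11.5 FPKM and 12.8 to 17.1 FPKM (0.51, SE 0.13). In bulk tissue, more cells of a type and more RNA per cell cannot be told apart.

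Of 19 neurotrophic factor and receptor genes, 6 rose and 0 fell (8.21% and 2.85% of all genes), and 5 rose and 0 fell without replicate 6 (5.87% and 3.32%). Gfra2, the binding subunit of the neurturin receptor, was at 9.35, 11.03 and 9.55 FPKM in saline, at 14.0, 14.1 and 13.4 FPKM in CFA3D and at 17.1, 15.2 and 14.5 FPKM in CFA6D, with no overlap between saline and either CFA group (0.64, SE 0.09, limma adjusted p = 0.0835). Ret, the signalling partner of Gfra2, was at 76.2, 73.8 and 61.3 FPKM in saline and at 110.2, 88.8 and 93.8 FPKM in CFA6D (0.47, SE 0.11). Ngfr, the low-affinity neurotrophin receptor, was at 75.9, 65.9 and 61.0 FPKM and at 108, 93.3 and 90.5 FPKM (0.52, SE 0.11). Between day 3 and day 6 the differences of Gfra2, Ret and Ngfr were 0.11 to 0.17, at limma adjusted p of 0.705 to 0.799, and 0 of the 19 genes rose from day 3 to day 6.

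The genes of the activity-regulated secreted proteins Vgf and Nptx2 lay above saline in both CFA groups, with no overlap. Vgf, a neuropeptide precursor, was at 8.64, 11.2 and 12.3 FPKM in saline, at 16.2, 27.0 and 21.4 FPKM in CFA3D and at 29.2, 20.4 and 25.3 FPKM in CFA6D (1.21, SE 0.21, limma adjusted p = 0.0996). Nptx2, a pentraxin that gathers glutamate receptors at synapses, was at 8.90, 9.09 and 8.34 FPKM in saline, at 14.5, 18.03 and 17.3 FPKM in CFA3D and at 21.8, 16.0 and 14.5 FPKM in CFA6D (0.96, SE 0.15, limma adjusted p = 0.0864). From day 3 to day 6 the difference was 0.23 for Vgf (limma adjusted p = 0.797) and 0.05 for Nptx2 (limma adjusted p = 0.943). The same step was 1.62 for Ddit4 and 1.24 for Arid5b.

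The prostacyclin receptor gene Ptgir was the 1 of 17 prostaglandin and bradykinin genes that rose, at 8.91 to 10.7 FPKM in saline and 11.9 to 12.6 FPKM in CFA6D (0.38, SE 0.10). Of 29 neuropeptide and receptor genes, 1 rose and 1 fell (8.21% and 2.85% of all genes). Without replicate 6, 5 of 28 rose and 1 fell (5.87% and 3.32% of all genes). By at least 1 log2 unit, 3 of these rose and 1 fell (0.324% and 0.668% of all genes). Those that rose included Pomc (5.24), at 2.42, 0.798 and 245 FPKM in saline, and Avp (1.91). Pomc is a hormone gene of the pituitary, whose genes varied between single libraries, and the part of that tissue in this count was not tested. Of 23 nerve injury genes, 4 rose and 1 fell (8.21% and 2.85% of all genes). A list of 47 genes that the study itself named for the TG after CFA, and which is therefore no independent evidence, held 14 that rose and 1 that fell with all libraries (8.21% and 2.85% of all genes), and 5 and 3 without replicate 6 (5.87% and 3.32% of all genes).

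Immune genes did not rise as groups. Over all genes, 8.21% rose and 2.85% fell with all libraries, and 5.87% and 3.32% without replicate 6. With limma, 0 of 22 interferon response genes and 0 of 28 cytokine and chemokine genes passed the unadjusted threshold in either direction, and 0 of 10 MHC class II genes rose and 1 fell. Of 20 macrophage genes, 0 rose and 1 fell, with a median of -0.32, and without replicate 6 0 rose and 7 fell, with a median of -0.51. These 7 rested on CFA6D replicate 4, without which 1 remained. Csf1r, the receptor of the macrophage growth factor, was at 15.2, 12.5 and 11.99 FPKM in saline and 8.01, 10.7 and 13.4 FPKM in CFA6D, and C1qa, of the complement component C1q, at 30.5, 23.9 and 25.1 FPKM and 12.3, 22.8 and 20.1 FPKM. In both, CFA6D replicate 4 was lowest.

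Glial and connective tissue genes were counted in the same way. Of 20 satellite glial genes 0 rose and 0 fell, of 22 Schwann cell myelin genes 1 rose and 2 fell, of 22 endothelial and pericyte genes 0 and 0, and of 22 fibroblast and meningeal genes 0 rose and 4 fell (8.21% of all genes rose and 2.85% fell). Without replicate 6, 1 satellite glial gene rose and 3 fell, and 2 Schwann cell myelin genes rose and 4 fell (5.87% and 3.32% of all genes). In the same fit 0 endothelial and pericyte genes rose and 0 fell, and 0 fibroblast and meningeal genes rose and 3 fell. Cldn1, a tight junction gene of the perineurium and meninges, was at 11.2, 8.46 and 10.3 FPKM in saline and at 4.97, 7.77 and 4.78 FPKM in CFA6D (-0.79, SE 0.20, limma adjusted p = 0.185). Lum, a proteoglycan of collagen fibrils, was at 20.97 to 25.9 FPKM and 13.4 to 19.1 FPKM (-0.49, SE 0.14).

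Oligodendrocyte genes were a list added after values had been seen, sharing 7 of its 20 genes with the Schwann cell list. These genes had a median of -0.84, with 3 that fell and 0 that rose (2.85% and 8.21% of all genes). Without replicate 6, 8 fell and 0 rose (3.32% and 5.87% of all genes), with a median of -1.27. Their sum was 1111, 898 and 1425 FPKM in saline and 521, 1021 and 997 FPKM in CFA6D. Mobp, a myelin gene of oligodendrocytes, was at 135, 119 and 332 FPKM in saline and at 21.5, 183 and 215 FPKM in CFA6D, so the low values were those of CFA6D replicate 4. Without that library the median was -0.17 and 2 fell.

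Of 81 genes of cytosolic ribosomal proteins, 1 rose and 10 fell with a median of -0.14, and of 81 nuclear genes of oxidative phosphorylation 1 rose and 10 fell with a median of -0.11, or 12.3% lower in each list against 2.85% of all genes. The ribosomal count of lower genes was 28 after quantile normalization (6.12% of all genes), 30 after median ratio scaling (5.17%) and 0 without CFA6D replicate 4 (1.82%). Ndufa13, a subunit of respiratory complex I, was at 52.5 to 60.2 FPKM in saline and 43.3 to 46.6 FPKM in CFA6D (-0.33, SE 0.07, limma adjusted p = 0.153). Of the 13 genes of the mitochondrial genome, 0 rose and 0 fell.

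Among downregulated genes, Fam131b, a gene of neural tissue, had the smallest p. It was at 14.6, 13.3 and 15.1 FPKM in saline, 15.5, 17.1 and 17.1 FPKM in CFA3D and 5.78, 6.51 and 9.16 FPKM in CFA6D (-1.02, SE 0.15, limma adjusted p = 0.0835). Without replicate 6 the difference was -1.21 (limma adjusted p = 0.0181). With its most abundant transcript alone it was -0.74 and did not pass. Scgb3a1, a small secreted protein, was at 1.69 to 2.47 FPKM in saline and 0.723 to 1.029 FPKM in CFA6D (-1.15, SE 0.20, limma adjusted p = 0.0996), and Rxfp3, the receptor of the neuropeptide relaxin-3, at 0.339 to 0.477 FPKM and 0.134 to 0.160 FPKM (-1.10, SE 0.24, limma adjusted p = 0.152). Exoc6, a subunit of the exocyst that tethers secretory vesicles, was at 7.10, 6.50 and 6.34 FPKM in saline and at 2.45, 1.72 and 3.49 FPKM in CFA6D (-1.40, SE 0.41, limma adjusted p = 0.240). In CFA3D it was at 6.79, 2.27 and 7.32 FPKM, so 1 library of day 3 was as low as those of day 6.

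Leaving out replicate 6 brought 3 genes (0.0187%) under an adjusted p of 0.05 in limma, Fam131b and 2 others. Paqr7, a membrane progestin receptor, was at 8.75, 7.38 and 7.49 FPKM in saline and at 17.3, 17.9 and 8.17 FPKM in CFA6D (0.79 with all libraries, limma adjusted p = 0.295; 1.15 without replicate 6, limma adjusted p = 0.0250). Rlf, a zinc finger gene, was at 6.83, 6.02 and 6.26 FPKM in saline and at 2.88, 2.94 and 6.84 FPKM in CFA6D (-0.70 with all libraries, limma adjusted p = 0.402; -1.10 without replicate 6, limma adjusted p = 0.0438). In both genes replicate 6 lay with saline.

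Long noncoding RNAs were tested in their own table. Of 4233 genes, 71 passed the double threshold (1.68%), 39 upregulated (0.921%) and 32 downregulated (0.756%), and 2 had a limma adjusted p under 0.05 (0.0472%). Without replicate 6, 80 of 4214 passed (1.9%), 35 up and 45 down. The abundant lncRNAs Malat1 (2046 to 2181 FPKM in saline, 2083 to 2367 FPKM in CFA6D) and Meg3 (229 to 349.7 FPKM, 252 to 279 FPKM) overlapped between groups. Pvt1 was at 4.77 to 5.58 FPKM in saline and 3.22 to 4.04 FPKM in CFA6D (-0.55, SE 0.14, limma adjusted p = 0.390). Of the upregulated lncRNAs with a position, 18 of 35 overlapped a tested mRNA gene, and for 13 of these that gene's difference had the same sign. Over all mRNA genes, 54.4% had a positive difference. Of the downregulated lncRNAs with a position, 21 of 31 overlapped a tested mRNA gene, and for 12 of these that gene had the same sign. At an unadjusted limma p under 0.05, the overlapped gene rose for 2 of the 18 and fell for 4 of the 21. Over all genes, 8.21% rose and 2.85% fell. A gene was counted once for each lncRNA over it: Ebf2 for 4930438E09Rik, 1700120O09Rik and Gm6878, and Fkbp5 for AC154912.1 and AC154912.5. The other gene that fell was Mid1, so the counts are not of distinct genes. The libraries were strand-specific by the study's methods, but whether the levels were computed by strand is not given in the sources used here, and how far an antisense transcript and its partner share reads was not tested.

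A cluster of upregulated noncoding genes lay at Fkbp5 (chr17:28399094-28517527), whose protein is a cochaperone that restrains the glucocorticoid receptor and whose gene the receptor induces. Of 8 noncoding genes tested within 10000 bases of it, 6 were upregulated by at least 1 log2 unit, and 5 without replicate 6. With all libraries, 0.921% of lncRNA genes and 1.64% of other noncoding genes were upregulated. The locus was examined because named noncoding genes lie there, so its count is no independent evidence. AC154912.1 was at 0.450, 0.237 and 0.134 FPKM in saline, 0.366, 0.558 and 0.142 FPKM in CFA3D and 1.83, 3.34 and 3.25 FPKM in CFA6D (3.00, SE 0.41, limma adjusted p = 0.0456), and AC154912.3 was at 0.222 to 0.522 FPKM and 2.46 to 4.22 FPKM (2.82, SE 0.36, limma adjusted p = 0.0551). AC154912.5 was higher by 2.60 and the long intergenic E230001N04Rik by 1.68. These transcripts share 1 locus and may share reads, so they are not 6 separate results. Fkbp5 itself was at 29.5, 21.6 and 16.8 FPKM in saline and at 28.2, 46.3 and 36.8 FPKM in CFA6D. Its CFA6D libraries overlapped saline and its difference of 0.72 (SE 0.33) did not pass (limma adjusted p = 0.457).

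Gm45774, antisense to the metallothionein gene Mt2 on chromosome 8, was at 0.618, 0.722 and 0.619 FPKM in saline, 0.386 to 0.589 FPKM in CFA3D and 2.25, 3.30 and 2.02 FPKM in CFA6D (1.77, SE 0.22, limma adjusted p = 0.0380). The level corresponded to 50.6 to 66.3 read pairs per library in saline and 205 to 332 in CFA6D. Mt2, a metal-binding protein gene that glucocorticoids induce, was at 354 to 433 FPKM in saline and at 367, 504 and 232 FPKM in CFA6D, and its difference of -0.13 did not pass. At Klf13, a zinc finger factor gene, the noncoding Gm27252 was at 1.14 to 1.73 FPKM in saline and 2.70 to 3.10 FPKM in CFA6D (1.05, SE 0.23). Klf13 itself was at 27.2, 22.8 and 19.4 FPKM and at 29.9, 36.1 and 39.0 FPKM (0.60, SE 0.17, limma adjusted p = 0.231).

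A cluster of downregulated noncoding genes lay at Ebf2 (chr14:67233292-67430918), which encodes a transcription factor of neuronal and adipocyte differentiation. Of 5 noncoding genes tested there, 4 were downregulated, 3 without replicate 6. With all libraries, 0.756% of lncRNA genes and 1.25% of other noncoding genes were downregulated. The locus was examined because named noncoding genes lie there, so its count is no independent evidence. These genes share 1 locus and may share reads, so they are not 4 separate results. The lncRNA 4930438E09Rik was at 1.16 to 1.30 FPKM in saline, 0.844 to 1.46 FPKM in CFA3D and 0.328 to 0.516 FPKM in CFA6D (-1.44, SE 0.23, limma adjusted p = 0.107), 1700120O09Rik fell by 1.38 and Gm6878 fell by 1.20 on the log2 scale. Ebf2 was at 5.27, 4.55 and 5.58 FPKM in saline and at 2.79, 4.08 and 2.34 FPKM in CFA6D, below saline in all 3 libraries (-0.75, SE 0.23, limma adjusted p = 0.268). Its most abundant transcript alone gave -0.57 and did not pass. The fifth noncoding gene tested there, Gm20675, did not pass and had a difference of 0.94.

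**Figure D5:**
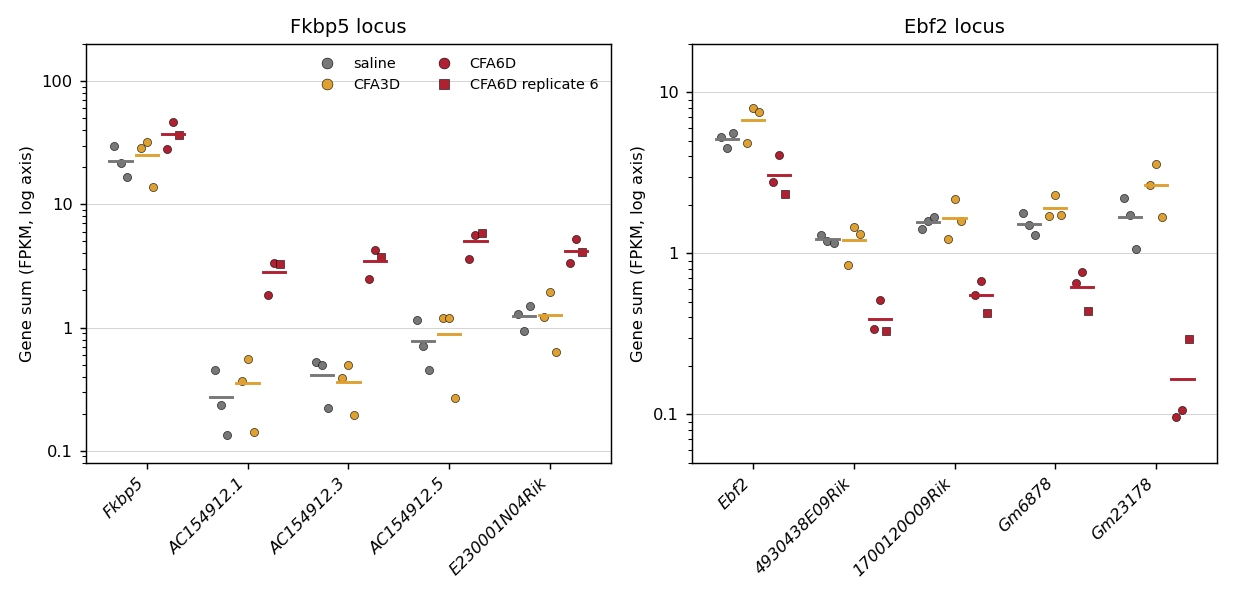
Gene sums (FPKM, log axis) of Fkbp5 and Ebf2 and of 4 noncoding genes at each locus in the saline, CFA3D and CFA6D libraries; each point is 1 library, squares are CFA6D replicate 6 and lines are group means. At the Fkbp5 locus the noncoding genes lie above both other groups in CFA6D while Fkbp5 overlaps saline, and at the Ebf2 locus all 5 genes lie below saline in CFA6D.

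In the table of other noncoding genes, 224 of 7753 passed the double threshold (2.89%), 127 up (1.64%) and 97 down (1.25%), and 244 of 7706 without replicate 6 (3.17%), 97 up and 147 down. With all libraries, the count was 9 at a pseudocount of 1 and 24 at a mean of at least 1 FPKM, so most of these genes were low. The share past the threshold differed between types, and so did gene length. Over the 95 bases of Gm23178, for example, 1 read pair was worth 0.249 to 0.351 FPKM, above the filter of 0.1 FPKM. How far length and low levels set the shares was not tested. Of 469 small nuclear RNA genes 22 were up and 12 down (7.25%), of 905 microRNA genes 34 up and 23 down (6.30%), of 52 immunoglobulin variable genes 4 up and 3 down (13.5%), and of 2746 processed pseudogenes 24 up and 25 down (1.78%). Libraries were not made for small RNA, so that mature microRNAs were not measured and a level is that of a longer transcript over the microRNA gene. Of the 3 microRNA genes among the genes named here, Mir3101, Mir7243 and Gm23178, the mature sequences of Mir3101 and Mir7243 are printed from RefSeq (GRCm38.p6), since they tell which RNA the locus encodes, with the seed (bases 2 to 8) in capitals.
miR-3101-3p: uAGCUUUGguggauggucuuu
miR-3101-5p: gGUACCAUugacuaaagcuag
miR-7243-3p: uCAGAACAgcugacagcagu
miR-7243-5p: uGCUGUCAgcuguucugagu

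Mir3101 (chr7:27176006-27176093, minus strand, inside an exon of a transcript of Rab4b that retains an intron) had the smallest adjusted p of all genes in all tables. It was at 0.0370, 0.0439 and 0.0273 FPKM in saline, 0.0204 to 0.0226 FPKM in CFA3D and 3.87, 3.04 and 5.27 FPKM in CFA6D (4.90, SE 0.27, limma adjusted p = 7.96e-05). Over a transcript of 88 bases, 1 read pair was worth 0.269 to 0.379 FPKM, so the values stand for 0.0665 to 0.116 of a read pair in each saline and CFA3D library and for 13.4, 10.1 and 17.6 read pairs in CFA6D. How reads were assigned between Mir3101 and the overlapping Rab4b transcript cannot be seen in levels per transcript and was not tested. Rab4b, a small GTPase of endosome recycling, was at 25.0 to 40.3 FPKM in saline and 31.1 to 31.7 FPKM in CFA6D (0.04, SE 0.15). Its retained-intron transcript was at 4.75 to 6.94 FPKM in saline and at 8.40, 8.85 and 1.72 FPKM in CFA6D replicates 4 to 6. Mir7243 (chr9:102304924-102304975) was at 0.415, 0.501 and 1.11 FPKM in saline and at 0.110, 0.0658 and 0.0873 FPKM in CFA6D (-1.95, SE 0.38, limma adjusted p = 0.566). It is shorter than Mir3101, so 1 read pair is worth more FPKM there. Each CFA6D value of Mir7243 therefore stands for less than 1 read pair, and the saline values for few. Gm23178, annotated as a microRNA gene of 95 bases at the Ebf2 locus, was at 2.22, 1.73 and 1.07 FPKM in saline and at 0.0956, 0.106 and 0.293 FPKM in CFA6D (-2.76, SE 0.38, limma adjusted p = 0.0653), or 4.07 to 6.46 against 0.358 to 1.06 read pairs.

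Day 6 was set beside day 3 after CFA in the same way. In limma, 126 of 16110 genes passed the double threshold (0.782%), 103 higher on day 6 and 23 lower, with 0 at an adjusted p under 0.05 and 1193 at an unadjusted p under 0.05 (7.41%). Of these 1193 genes, 494 were higher on day 6 (3.07%) and 699 lower (4.34%). Without CFA6D replicate 6, 118 genes passed the double threshold, 61 higher and 57 lower, so the excess of higher genes rested on that library. Both comparisons use the same CFA6D libraries and are not independent. Of the 65 genes upregulated against saline, 45 were also higher than on day 3, and of the 31 downregulated 9 were also lower. Of the gene lists, 13 of 31 glucocorticoid-responsive genes and 12 of 34 immediate early genes were higher than on day 3, as were 0 of 19 neurotrophic genes and 2 of 44 ion channels (3.07% of all genes).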

How the data were processed

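RNA of pooled TG was sequenced after removal of ribosomal RNA, with trimming by Trimmomatic and the mouse genome GRCm38 named in the study's methods; the submitters' processing notes name Bowtie 0.12.2 and build mm8, and the tool that computed the levels is not given in the sources used here. The authors deposited FPKM per transcript for mRNAs, lncRNAs and other noncoding RNAs, 1 column per library; the CFA6D columns were taken by their labels. FPKM of 101539 of 102122, 15370 of 15657 and 24532 of 24718 transcripts were summed per gene by GENCODE mouse release 21 identifiers. The 146 predicted lncRNA transcripts without such an identifier were each kept as a gene. Genes averaging 0.1 FPKM or more were tested with limma 3.58.1 (R 4.3.3, trend on the mean) on log2(FPKM + 0.1), with all 9 libraries sharing the spread and Benjamini-Hochberg adjustment over each table; the script was tested on simulated data. FPKM are not counts, so no count model was used. Each library is a separate pool of mice, so p-values measure the spread between pools. Depth, read from the smallest FPKM steps, was 30000000 to 42200000 read pairs.

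A gene counted as upregulated or downregulated at an unadjusted p under 0.05 and a difference of at least 1 log2 unit. The gene lists, the rule for named genes and the comparison itself were chosen with earlier results of these data known. Genes named are the 10 in each direction with the smallest p among those upregulated or downregulated, with and without CFA6D replicate 6, the 5 in each direction of the noncoding tables, up to 6 genes of each list by p (for other cell types also the 4 most abundant), and the coding genes beside named noncoding genes; Prph, Scn10a, Fabp7, Mki67, Pvt1, Malat1 and Meg3 were added as tissue markers or well known transcripts. Some genes that the rule names are not reported here. Alternatives were another pseudocount, filter, scaling or transcript choice, fewer libraries in the fit and leaving out each library.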

Additional observations from a re-analysis of the deposited data

Results flagged for a closer look

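The difference between the effects on day 6 and on day 3, tested as CFA6D minus CFA3D since both share the saline libraries, had a limma adjusted p under 0.05 in 4 noncoding genes. Mir3101 differed by 5.07 on the log2 scale (SE 0.27, limma adjusted p = 5.85e-05), at 0.0204 to 0.0226 FPKM in CFA3D and 3.04 to 5.27 FPKM in CFA6D. Gm45774, antisense to Mt2, differed by 2.10 (SE 0.22, limma adjusted p = 0.00807). AC154912.3, at Fkbp5, differed by 2.98 (SE 0.36, limma adjusted p = 0.0264), and Gm23178, at Ebf2, by -3.39 (SE 0.38, limma adjusted p = 0.0229). All 3 CFA6D libraries lay on the same side of all 3 CFA3D libraries in each of the 4 genes, replicate 6 included. Mir3101 and Gm23178 are annotated over fewer than 100 bases, and their highest values stand for 17.6 and 13.6 read pairs.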

How the results depend on the processing

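No paired analysis was possible because the CFA6D libraries are numbered 4 to 6 and the saline libraries 1 to 3. The number of mRNA genes past the double threshold with all libraries (96) was 21 at a pseudocount of 1, 39 at a mean of at least 1 FPKM and 202 with the most abundant transcript in place of the gene sum, and 115 to 240 when 1 library was left out (147 without saline replicate 3, 240 without CFA6D replicate 4, 164 without replicate 5 and 159 without replicate 6). Without CFA6D replicate 6 (159), the same settings gave 40, 76 and 263, and leaving out a further library 147 to 313, the last without CFA6D replicate 5. The lncRNA count (71) was 6 at a pseudocount of 1 and 11 at a mean of at least 1 FPKM, and 80 to 104 without 1 library. The count of other noncoding genes (224) was 9 and 24, and 244 to 311. Against CFA3D (126), the count was 38 and 62, and 103 to 274 (274 without CFA6D replicate 4, 229 without replicate 5). With a single library left in an arm, that library is assumed to vary like the other groups. Some of the named genes were followed over these settings. Among them, only Nr3c1 changed sign in CFA6D against saline, to 1.27 with its most abundant transcript (1.16 without replicate 6). Of the named genes not followed, Mt2 and Meg3, for example, changed sign when replicate 6 was left out. Mt2 went from -0.13 to 0.17 and Meg3 from -0.02 to 0.01, and neither passed in either fit. Against CFA3D, the sign changed in 5 combinations of a named gene and a setting. In each of these the difference had not passed the unadjusted limma threshold. Of 31 glucocorticoid-responsive genes, 14 to 19 rose when 1 library was left out, and 8 without both replicates 5 and 6. The cause of these shifts was not tested.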

Other observations

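Clustered histone genes, whose mRNAs lack a poly(A) tail and are made in dividing cells, summed to 954 to 1020 FPKM in saline, 791 and 753 FPKM in CFA6D replicates 4 and 5 and 3009 FPKM in replicate 6. Of 63 tested, 0 rose and 0 fell in limma with all libraries, and 0 rose and 22 fell without replicate 6 (3.32% of all genes). Hist1h2bq was at 3.94, 8.57 and 10.7 FPKM in saline, 1.58 to 2.41 FPKM in CFA3D and 1.42, 1.53 and 9.90 FPKM in CFA6D. Of 41 collagen genes 2 rose and 3 fell, and Col22a1, a collagen of tissue junctions, was at 0.101 to 0.193 FPKM in saline and 0.246, 0.994 and 0.995 FPKM in CFA6D (1.66, limma adjusted p = 0.231). Of 56 protocadherin genes of the clusters, 1 rose and 1 fell. Of 19 erythroid genes 2 rose and 0 fell, and of 11 B cell and immunoglobulin genes 1 rose and 1 fell. Over all genes, 8.21% rose and 2.85% fell.

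Hormone genes varied between libraries. Pomc, the precursor of ACTH and beta-endorphin, was at 2.42, 0.798 and 245 FPKM in saline and at 282, 343 and 10.5 FPKM in CFA6D, beside the pituitary sums given above. Avp, the vasopressin gene, was at 0.880 to 1.24 FPKM in saline, 2.31, 8.79 and 6.80 FPKM in CFA3D and 2.44, 6.52 and 1.05 FPKM in CFA6D (1.29 with all libraries, 1.91 without replicate 6, limma adjusted p = 0.381).

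A transcript assembled by the authors without a gene identifier in the annotation was listed at 62080 FPKM in CFA6D replicate 4 and at 12.6 to 289 FPKM in the other 8 libraries. It entered the lncRNA fit as a gene of its own and did not pass the unadjusted limma threshold (difference 4.38).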
